A study of Mus musculus with 4 samples.

Results

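Pancreatic polypeptide cells (PP cells) are the endocrine cells of the islet that make the hormone encoded by Ppy. In droplet libraries of dispersed mouse islets they were taken here as barcodes of 1000 or more UMIs (unique molecular identifiers, each standing for 1 captured transcript), with 500 or more genes detected and mitochondrial transcripts at no more than 20% of UMIs, in which Ppy made up at least 2% of UMIs, Ins1 and Ins2 together under 4%, Gcg under 5% and Sst under 2%. The rule found 714 PP barcodes among 31792 kept barcodes in 4 libraries. The barcodes were thus chosen by their measured Ppy, Ins1, Ins2, Gcg and Sst, so the values of these genes are a description and carry no test.

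The islets came from wild-type C57BL6J male mice aged 8 weeks and were cultured for 24 h before dispersal with Accutase. The 4 libraries held islets cultured with 1 mM imeglimin in 11.1 mM glucose, with DMSO vehicle in 11.1 mM glucose, with 1 mM imeglimin in 3.9 mM glucose, and with DMSO vehicle in 3.9 mM glucose. Imeglimin is an oral glucose-lowering drug for type 2 diabetes. Each condition was 1 library, so no difference between conditions could be set against a spread between libraries. How many mice were pooled for a library is not given in the sources used here.

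PP cells release pancreatic polypeptide after meals under control of the vagus nerve, and the peptide slows pancreatic secretion and food intake through neuropeptide Y family receptors. Ppy and Pyy, which encodes peptide YY, are neighbouring genes of the same family, and in rodents the cells that make pancreatic polypeptide commonly also contain peptide YY. PP cells are a minor islet population and share much of their developmental programme with glucagon-producing alpha cells.

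Both genes lie on the minus strand of mouse chromosome 11 of GRCm38. Ppy (ENSMUSG00000017316) runs from 102099930 to 102101319 and Pyy (ENSMUSG00000017311) from 102106676 to 102107832, with 5356 bp between them. The 250 bases before each start site are shown because these 2 genes supply most of the hormone transcripts of PP barcodes. They were read from the RefSeq promoter table on GRCm38.p6 and are given 5′ to 3′ on the minus strand, at chr11:102101320-102101569 for Ppy and chr11:102107833-102108082 for Pyy, with the letters TATAA in capitals.
Ppy: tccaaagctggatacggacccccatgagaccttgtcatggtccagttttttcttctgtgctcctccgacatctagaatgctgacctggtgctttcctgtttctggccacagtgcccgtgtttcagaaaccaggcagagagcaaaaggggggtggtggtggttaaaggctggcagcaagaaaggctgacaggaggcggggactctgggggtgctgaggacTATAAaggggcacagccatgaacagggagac
Pyy: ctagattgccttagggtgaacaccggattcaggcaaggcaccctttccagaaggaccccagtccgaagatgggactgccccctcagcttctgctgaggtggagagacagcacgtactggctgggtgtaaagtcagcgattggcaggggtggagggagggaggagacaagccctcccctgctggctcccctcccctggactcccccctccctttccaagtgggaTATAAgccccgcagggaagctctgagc
The first T of the capitals stood at -31 from the start of Ppy and at -27 from the start of Pyy. The letters TATAA, searched on both strands, occurred in the same window of 6972 of 27025 genes (25.8%), so their presence in both is a description only.

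PP barcodes numbered 156 in the imeglimin and 127 in the vehicle library at 11.1 mM glucose, and 258 in the imeglimin and 173 in the vehicle library at 3.9 mM glucose. As a share of kept barcodes they were 1.85% (exact Clopper-Pearson 95% interval 1.57 to 2.16) with imeglimin and 1.71% (1.42 to 2.03) with vehicle at 11.1 mM glucose. At 3.9 mM glucose the shares were 2.95% (2.60 to 3.32) with imeglimin and 2.41% (2.07 to 2.80) with vehicle. The intervals cover counting error only. Because the rule used hormone levels that culture can move, a share is a share of barcodes passing these limits and not a cell number.

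The PP barcodes of a library held between 1339274 and 3117766 UMIs in total, with medians of 7104.5 to 10293 UMIs per barcode. Whole libraries held 91245564 to 106092232 UMIs in 8073 to 10134 deposited barcodes. Of the PP barcodes, 7 carried a barcode sequence that also occurred in another library. A doublet caller marked 0 of all 31792 kept barcodes, so it did not work here and says nothing of doublets, which were kept. Of the PP barcodes, 42 stood among the highest doublet scores of their library, 7 and 2 in the imeglimin and vehicle libraries at 11.1 mM and 22 and 11 in the imeglimin and vehicle libraries at 3.9 mM glucose. Free RNA was present: Ppy had a UMI in 19.1% of 424 endothelial barcodes in the imeglimin and 26.8% of 224 in the vehicle library at 11.1 mM, and in 33.1% of 417 in the imeglimin and 42.0% of 169 in the vehicle library at 3.9 mM glucose. There it made up 0.315 to 0.455% of the summed endothelial UMIs. Endothelial barcodes were taken by their markers with no limit on hormones, so this share can include Ppy-rich barcodes and is not a level of free RNA. In beta barcodes, which were limited to under 2% Ppy, it made up 0.0250 to 0.0527% of UMIs. The part of free RNA in the Ppy of PP barcodes was not tested.

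Ppy was abundant in the PP barcodes, as the rule required, and Pyy, which the rule did not use, was abundant beside it. The Ppy share of a barcode's UMIs had a lowest value, median and highest value of 2.04, 13.8 and 48.5% in the imeglimin library and 2.28, 16.7 and 41.7% in the vehicle library at 11.1 mM glucose. At 3.9 mM glucose these were 2.26, 12.8 and 51.7% with imeglimin and 2.07, 13.3 and 46.5% with vehicle. The 4 distributions overlapped over nearly their whole range. The Pyy share was 0.216, 9.72 and 30.0% with imeglimin and 0.866, 14.6 and 32.6% with vehicle at 11.1 mM glucose, and 0.302, 6.62 and 28.7% with imeglimin and 0.674, 10.5 and 34.6% with vehicle at 3.9 mM. The Pyy median was lower with imeglimin at both glucose levels, and the ranges overlapped.

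Pyy exceeded Ppy in a sizeable minority of barcodes. These were 49 (31.4%) with imeglimin and 54 (42.5%) with vehicle at 11.1 mM glucose, and 58 (22.5%) with imeglimin and 69 (39.9%) with vehicle at 3.9 mM. Pyy was under 1% of UMIs in only 14 of the 714 barcodes. Together the 2 hormones had a median share of 24.98% with imeglimin and 31.4% with vehicle at 11.1 mM glucose, and of 20.3% with imeglimin and 25.5% with vehicle at 3.9 mM glucose. Across barcodes of 1 library, log2 Ppy and log2 Pyy had a Pearson r of 0.108 (n = 156) with imeglimin and 0.530 (n = 127) with vehicle at 11.1 mM, and 0.196 (n = 258) with imeglimin and 0.553 (n = 173) with vehicle at 3.9 mM. Barcodes of a library share its depth and free RNA, and both shares are bounded by the same total, so these values are a description.

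**Figure D1:**
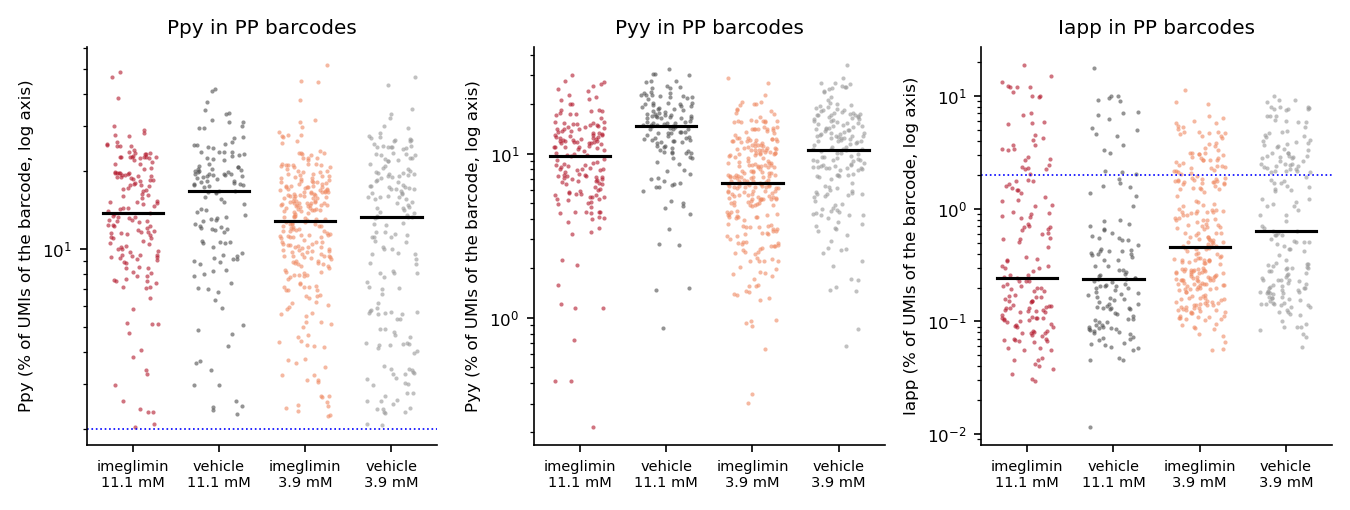
Share of Ppy, Pyy and Iapp in each PP barcode, as percent of the barcode's UMIs on a log axis, for the 4 libraries (points, 1 per barcode; black bars, medians; dotted lines, the 2% minimum for Ppy and the 2% level used for Iapp). Pyy medians lie between 6.62% and 14.6%, and the highest Iapp shares are 10.0 to 18.8%.

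Transcripts of the other islet hormones were low in most PP barcodes. Median insulin (Ins1 and Ins2) was 0.245% with imeglimin and 0.315% with vehicle at 11.1 mM glucose, and 0.577% with imeglimin and 0.241% with vehicle at 3.9 mM. Median Gcg was 0.0179% with imeglimin and 0.0190% with vehicle at 11.1 mM glucose, and 0.0297% with imeglimin and 0.0213% with vehicle at 3.9 mM. Median Sst was 0 in each library. Gcg nonetheless reached 1% or more in 20 barcodes with imeglimin and 16 with vehicle at 11.1 mM glucose, and in 56 with imeglimin and 27 with vehicle at 3.9 mM. Ghrl, the ghrelin gene that marks epsilon cells, had 0 UMIs in all 4 sums.

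Iapp, which encodes amylin and is co-secreted with insulin by beta cells, varied widely among the PP barcodes. Its median share was 0.244% with imeglimin and 0.236% with vehicle at 11.1 mM glucose, and 0.461% with imeglimin and 0.631% with vehicle at 3.9 mM, while its highest values were 18.8 and 17.9% in the imeglimin and vehicle libraries at 11.1 mM and 11.4 and 10.0% in the imeglimin and vehicle libraries at 3.9 mM. Barcodes with Iapp at 2% or more, a level chosen after these values were seen, numbered 33 (21.2%, 95% interval 15.03 to 28.4) with imeglimin and 20 (15.7%, 9.89 to 23.3) with vehicle at 11.1 mM. At 3.9 mM they numbered 52 (20.2%, 15.4 to 25.6) with imeglimin and 63 (36.4%, 29.2 to 44.1) with vehicle.

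Iapp-rich barcodes had a lower median Ppy share in all 4 libraries. Their median Ppy share was 8.06% against 15.3% in the other PP barcodes with imeglimin at 11.1 mM glucose, and 4.89% against 18.3% with vehicle at 11.1 mM. At 3.9 mM it was 6.84% against 14.4% with imeglimin and 4.89% against 17.4% with vehicle. Over the barcodes of a library, log2 Ppy and log2 Iapp had an r of -0.386 with imeglimin and -0.594 with vehicle at 11.1 mM glucose, and of -0.502 with imeglimin and -0.709 with vehicle at 3.9 mM. Ppy chose the barcodes, and both shares are bounded by the same total, which by itself pulls them apart. The medians and r values are therefore a description. The barcodes near the Ppy limit had median Iapp above that of all PP barcodes on both sides of it. Those with Ppy from 2 to 2.5% numbered 5 and 4 in the imeglimin and vehicle libraries at 11.1 mM and 6 and 8 in those at 3.9 mM, with median Iapp of 1.27 and 6.90%, and 4.58 and 3.85%. Those from 1.5 to 2%, just outside, numbered 4 and 3, and 12 and 13, with median Iapp of 9.78 and 9.71%, and 5.19 and 4.86%, in the same order of libraries.

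Summed transcripts of the Iapp-rich barcodes held more Pdx1 and Rbp4 than the rest in each library. Levels within this split are plain CPM, each gene's UMIs scaled by the UMI total of the summed barcodes. Pdx1, a regulator of beta and delta cell identity, stood at 86.5 CPM against 21.4 CPM in the rest with imeglimin and 70.9 against 22.1 CPM with vehicle at 11.1 mM glucose, and at 43.8 against 20.4 CPM with imeglimin and 59.3 against 18.3 CPM with vehicle at 3.9 mM. Rbp4, a retinol carrier abundant in delta cells, had 879 to 1961 CPM in the Iapp-rich sums and 344 to 552 CPM in the rest. The delta cell gene Hhex had 16.7 to 64.1 CPM in the Iapp-rich sums and 0 to 10.9 CPM in the rest. Sst, limited by the rule, had 3971 to 10270 CPM and 499 to 1353 CPM. Delta barcodes of the same libraries held 77.1 to 131 CPM of Pdx1, 3991 to 6070 CPM of Rbp4 and 232 to 279 CPM of Hhex. Their Iapp was 49653 to 68955 CPM, against 36639 to 52839 CPM in the Iapp-rich sums.

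Beta cell genes differed among themselves in the Iapp-rich sums. Mafa had 2.79 to 18.8 CPM in the Iapp-rich sums and 0 to 4.39 CPM in the rest, against 43.0 to 465 CPM in beta barcodes of the same libraries. Slc2a2, the glucose transporter gene of beta cells, had 2.79 to 6.75 CPM in the Iapp-rich sums, against 32.2 to 225 CPM in beta barcodes. Pdx1 stood in the Iapp-rich sums at 43.8 CPM with imeglimin and 59.3 CPM with vehicle at 3.9 mM, against 26.7 and 50.7 CPM in beta barcodes. At 11.1 mM it was below beta barcodes, at 86.5 against 96.1 CPM with imeglimin and 70.9 against 153 CPM with vehicle. Nkx6-1 with imeglimin at 11.1 mM stood at 313 CPM, against 292 CPM in the rest and 297 CPM in beta barcodes. On the common scale used for class levels below, UMI totals of this library were multiplied by 0.728 for beta and 0.955 for PP barcodes. The order of Nkx6-1 between its Iapp-rich and beta barcodes therefore depends on the scaling. In the other libraries the plain CPM of Nkx6-1 in Iapp-rich sums were below those of beta barcodes. These were 233 against 293 CPM with vehicle at 11.1 mM, and at 3.9 mM 278 against 348 CPM with imeglimin and 135 against 182 CPM with vehicle. Glp1r in the vehicle library at 3.9 mM stood at 169 CPM, against 372 CPM in beta barcodes. Insulin was limited to under 4% by the rule, with medians in the Iapp-rich barcodes of 0.440% with imeglimin and 0.566% with vehicle at 11.1 mM glucose, and 0.911% with imeglimin and 1.45% with vehicle at 3.9 mM glucose. Of these barcodes, 29 of 168 were among the highest doublet scores, against 13 of 546 in the rest. With vehicle at 11.1 mM this was 1 of 20 Iapp-rich barcodes. Their median UMI count at 3.9 mM was 15939 with imeglimin and 15009 with vehicle, against 8211 and 9766 in the rest of the imeglimin and vehicle libraries. At 11.1 mM the medians were close, at 7151 against 7022 with imeglimin and 8795 against 8579 with vehicle. The part of doublets in this split was not tested.

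**Figure D2:**
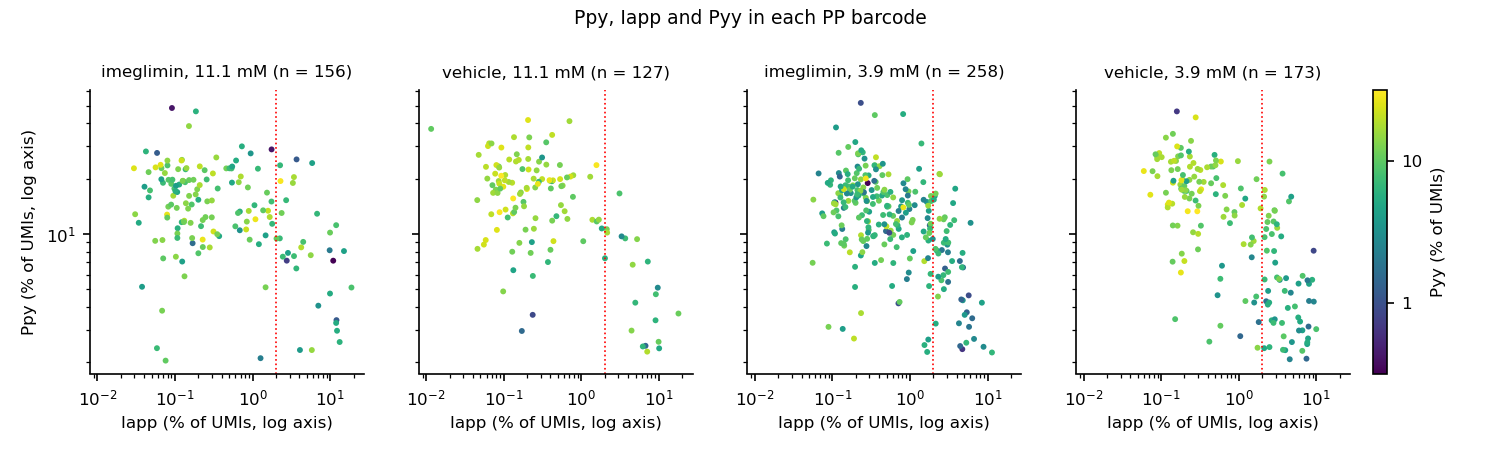
Ppy against Iapp in each PP barcode, both as percent of the barcode's UMIs on log axes, 1 panel per library; colour gives Pyy and the red dotted line marks 2% Iapp. Median Ppy is 4.89 to 8.06% right of the line and 14.4 to 18.3% left of it.

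The label was checked against markers of all islet classes, and 3 further classes were taken by the matching hormone rules: alpha barcodes (Gcg at least 5%), delta barcodes (Sst at least 2%) and beta barcodes (Ins1 and Ins2 at least 4%), each under the limits for the other hormones. UMIs were summed per class and library. The 4 libraries served as replicates of the difference between classes within a library, and edgeR's quasi-likelihood test was fitted with library as a block and Benjamini-Hochberg adjustment over all genes tested. Against alpha barcodes 1708 of 11835 genes were higher in PP barcodes (14.4%) and 1442 lower (12.2%). Against delta barcodes 959 of 10797 were higher (8.88%) and 1009 lower (9.35%), and against beta barcodes 1602 of 15139 were higher (10.6%) and 2016 lower (13.3%). The median log2 fold change of all genes tested was 0.01, 0.00 and -0.04 against alpha, delta and beta barcodes. The counts depended on the fit: with DESeq2 949 were higher and 693 lower than in alpha, and 448 and 486 than in delta barcodes, while 1 fit on all 4 classes gave 808 and 758, and 531 and 605. Leaving out the vehicle library at 3.9 mM gave 1130 higher than in alpha, and 1055 higher and 1343 lower than in beta barcodes. Leaving out the imeglimin library at 11.1 mM gave 1285 lower than in beta barcodes. The 3 comparisons share the PP sums. Class levels below are CPM on a common TMM scale over the 16 sums, as mean ± SD over the 4 libraries. The p-values rest on how the difference between classes varied across these 4 libraries, which were cultured differently. They do not measure the spread that the SD gives.

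Pyy was higher in PP barcodes than in each other class. Its PP level was 110900 CPM with imeglimin and 150200 CPM with vehicle at 11.1 mM glucose, and 76520 CPM with imeglimin and 110900 CPM with vehicle at 3.9 mM. The mean was 112100 ± 30100 CPM in PP barcodes, against 14640 ± 3771 in alpha, 44740 ± 21170 in delta and 1701 ± 752 in beta barcodes. The log2 fold change was 2.97 ± 0.08 (SE) against alpha, 1.42 ± 0.09 against delta and 6.17 ± 0.20 against beta barcodes (edgeR adjusted p = 5.0e-13, 9.8e-11 and 2.9e-10). Etv1, an ETS-family transcription factor given as a marker of these cells, did not set PP barcodes apart from alpha barcodes by a higher level. It averaged 419 ± 106 CPM in PP and 704 ± 241 CPM in alpha barcodes, and was lower in PP barcodes in all 4 libraries (log2 fold change -0.69 ± 0.07, edgeR adjusted p = 5.3e-06), a call lost in 1 fit on all 4 classes. It had 322 ± 79.5 CPM in delta and 47.6 ± 32.3 CPM in beta barcodes (0.39 ± 0.09, adjusted p = 0.0028, and 3.48 ± 0.26, adjusted p = 9.0e-07). Without the imeglimin library at 3.9 mM glucose the difference from delta barcodes was 0.26 and no longer passed. A UMI of Etv1 was found in 85.5 to 93.6% of PP, 93.5 to 96.6% of alpha, 70.1 to 86.0% of delta and 9.73 to 39.4% of beta barcodes. It was found in 7.55 to 14.7% of endothelial barcodes, whose median depth was 3241 to 6927 UMIs.

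Further genes were higher in PP barcodes than in alpha, delta and beta barcodes alike. Tspan8, a tetraspanin, averaged 744 ± 169 CPM, against 59.5 ± 15.7 in alpha, 382 ± 58.0 in delta and 30.9 ± 4.88 in beta barcodes (log2 fold change 3.65, 0.95 and 4.65). Folr1, the folate receptor alpha, averaged 176 ± 39.6 CPM, against 16.1 in alpha, 61.0 in delta and 13.2 in beta barcodes (3.43, 1.55 and 3.84). Cd9, another tetraspanin, had 63.6 CPM with imeglimin and 122 CPM with vehicle at 11.1 mM, and 52.5 CPM with imeglimin and 93.3 CPM with vehicle at 3.9 mM, against means of 20.4, 10.5 and 4.78 CPM in alpha, delta and beta barcodes (1.97, 2.93 and 4.16). The differences of these 3 genes had an edgeR adjusted p of 1.2e-07 or less, and no PP library fell into the range of another class.

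Fgb, which encodes the fibrinogen beta chain, averaged 154 ± 114 CPM in PP barcodes, against 48.7, 9.22 and 3.24 CPM in alpha, delta and beta barcodes (log2 fold change 1.60, 3.84 and 5.51, edgeR adjusted p of 7.8e-06 or less). Single barcodes weighed on it: 1 barcode held 265 of 802 UMIs in the vehicle library at 3.9 mM and 1 held 39 of 105 in the imeglimin library at 11.1 mM. Selenop, a selenium transport protein, averaged 273 ± 69.3 CPM (log2 fold change 1.22, 1.95 and 1.55 against alpha, delta and beta barcodes). Calb1, the calcium buffer calbindin, averaged 164 ± 37.5 CPM (0.73, 1.32 and 4.47), and the glucuronosyltransferase gene Ugt2b34 327 ± 82.7 CPM (0.92, 2.81 and 1.90). Tmem176a averaged 290 ± 32.2 CPM (0.84, 0.69 and 0.90), and the heparan sulphate proteoglycan gene Sdc4 241 ± 22.6 CPM (0.64, 1.42 and 0.90). Gadd45b, a growth arrest gene, averaged 57.4 ± 7.15 CPM (0.98, 1.76 and 1.35). It was higher than in beta barcodes in 3 of 4 libraries, with an edgeR adjusted p of 0.018, and lost that call with DESeq2.

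A further 8 named genes were lower in PP barcodes than in all 3 classes. Pde10a, a cyclic nucleotide phosphodiesterase, averaged 30.6 ± 20.8 CPM, against 48.9, 155 and 98.2 CPM in alpha, delta and beta barcodes (log2 fold change -0.66, -2.30 and -1.18). Lrrn1, a leucine-rich repeat membrane protein, averaged 31.2 ± 10.0 CPM, against 109, 46.7 and 82.6 CPM (-1.65, -0.60 and -1.26). Ids, a lysosomal sulphatase, averaged 67.5 ± 7.86 CPM, against 122, 97.4 and 154 CPM (-0.81, -0.48 and -1.01). The bicarbonate transporter gene Slc4a7, the granule-tethering GTPase gene Rab27a, the nuclear export receptor gene Xpo1, Cmtm4 and Fxyd6 made up the rest, and each of the 8 lost at least 1 of its 3 calls under an alternative fit.

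**Figure D3:**
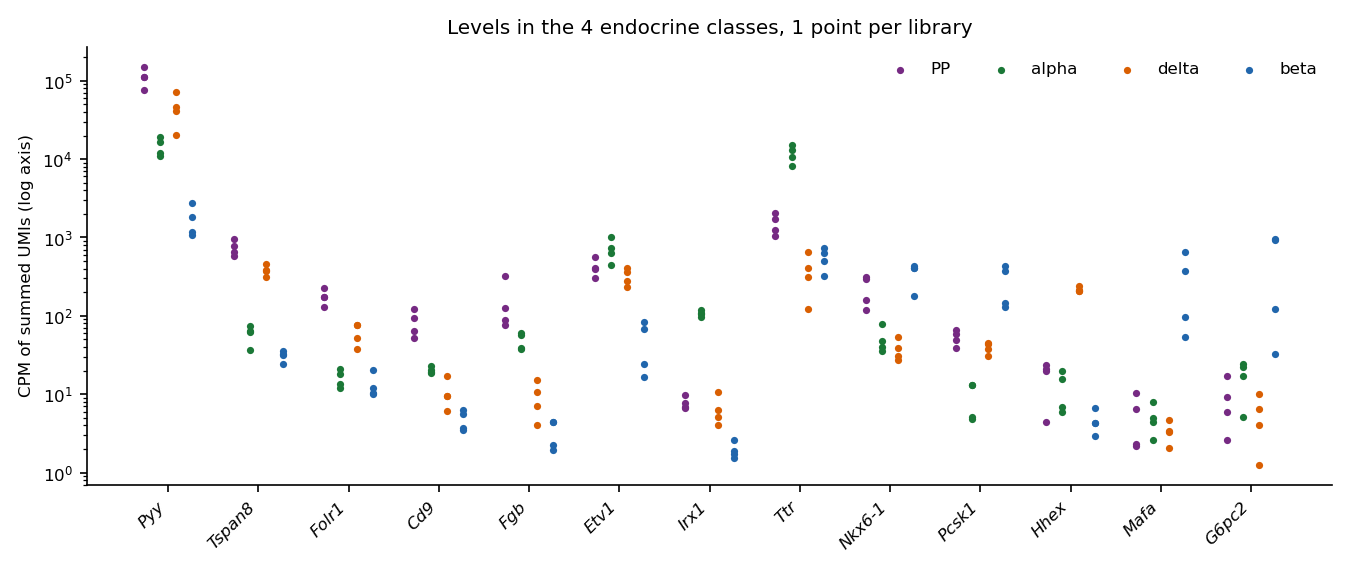
Levels of named genes in PP, alpha, delta and beta barcodes, as CPM of summed UMIs on a log axis, with 1 point per library (values under 0.5 drawn at 0.5). The PP points of Pyy, Tspan8, Folr1 and Cd9 lie above those of the other 3 classes, and Irx1 and Ttr set PP apart from alpha.

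The Iroquois transcription factor genes Irx1 and Irx2 were lower in PP than in alpha barcodes. These homeobox genes of alpha cells averaged 7.74 ± 1.38 and 29.2 ± 5.99 CPM in PP barcodes, against 107 ± 9.98 and 155 ± 16.3 CPM in alpha barcodes (log2 fold change -3.68 and -2.39, edgeR adjusted p = 1.7e-11 and 6.1e-11).

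Nkx6-1, a factor that maintains beta cells, was high in PP barcodes too. It averaged 221 ± 95.7 CPM, against 50.5 ± 19.3 in alpha and 37.5 ± 11.5 in delta barcodes (log2 fold change 2.09 and 2.53, edgeR adjusted p = 2.6e-07 and 3.7e-13), and 358 ± 118 CPM in beta barcodes (-0.65, adjusted p = 0.0093, not passed without the vehicle library at 11.1 mM glucose). Pdx1 averaged 34.1 ± 4.87 CPM, against 11.8 in alpha, 97.4 in delta and 107 in beta barcodes (1.52, -1.47 and -1.18, edgeR adjusted p = 7.4e-06, 1.4e-09 and 0.012, the last not passed without either library at 11.1 mM glucose). Hhex, the delta cell homeobox gene, averaged 17.2 ± 8.70 CPM in PP and 218 ± 15.9 CPM in delta barcodes (-3.58, adjusted p = 3.7e-13). Mafa, the beta cell Maf factor, averaged 5.37 ± 3.94 CPM in PP and 292 ± 275 CPM in beta barcodes (-4.75, adjusted p = 4.1e-05). Of the list of endocrine transcription factors, 6 were higher and 16 lower of 32 tested against alpha, 13 higher and 10 lower of 31 against delta, and 14 higher and 8 lower of 33 against beta barcodes, with median log2 fold changes of -0.30, -0.01 and 0.27. Beside these, all genes tested had 14.4% higher and 12.2% lower against alpha, 8.88% and 9.35% against delta, and 10.6% and 13.3% against beta barcodes.

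Among granule genes, Pcsk1, the proconvertase of beta cells, averaged 53.2 ± 11.6 CPM in PP and 9.04 ± 4.71 CPM in alpha barcodes (log2 fold change 2.504, edgeR adjusted p = 3.3e-07), and 270 ± 154 CPM in beta barcodes (-2.04, adjusted p = 0.00017). Pcsk2, the proconvertase of alpha cells, averaged 2165 ± 206 CPM, against 3488 ± 304 in alpha barcodes (-0.65, adjusted p = 1.0e-06). Its levels in delta and beta barcodes were 1946 and 2029 CPM, with no call. The granin Chgb averaged 1665 ± 381 CPM in PP, 690 in alpha, 2747 in delta and 1201 in beta barcodes (1.28, -0.69 and 0.62), and without the vehicle library at 3.9 mM glucose the difference from beta barcodes no longer passed. Ttr, the thyroxine carrier abundant in alpha cells, averaged 1522 ± 460 CPM in PP and 11750 ± 2994 CPM in alpha barcodes (-2.92, edgeR adjusted p = 1.5e-12). Npy, the third gene of the peptide family, was scarce, with 1.87 ± 1.58 CPM in PP barcodes. Iapp averaged 16640 ± 2510 CPM, against 8088 in alpha, 48550 in delta and 96810 in beta barcodes (1.19, -1.53 and -2.40). Its sign against alpha barcodes rested on the Iapp-rich PP barcodes: without them it was -0.55. Of the list of hormones and granule genes, 10 were higher and 14 lower of 35 tested against alpha, 9 and 8 of 33 against delta, and 7 and 14 of 37 against beta barcodes, with medians of -0.21, -0.10 and -0.24. The shares of all genes tested were 14.4% higher and 12.2% lower, 8.88% and 9.35%, and 10.6% and 13.3%.

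Receptor and channel transcripts were mixed. The muscarinic receptor gene Chrm3 averaged 16.4 ± 2.89 CPM in PP barcodes, against 2.44 in alpha and 3.25 in delta barcodes (log2 fold change 2.65 and 2.36, edgeR adjusted p = 1.0e-05 and 3.1e-06), and 17.7 CPM in beta barcodes (-0.04, adjusted p = 0.90). The AMPA receptor subunit gene Gria2 averaged 149 ± 31.2 CPM, against 261 in alpha, 80.9 in delta and 13.5 in beta barcodes (-0.73, 0.88 and 3.58). The fatty acid receptor gene Ffar4 averaged 49.6 ± 7.02 CPM, against 40.8, 86.5 and 6.35 CPM (0.27, -0.82 and 3.02, the first with no call). Kcnk3, a two-pore potassium channel gene, averaged 55.0 ± 12.7 CPM, against 74.6, 18.6 and 3.34 CPM (-0.41, 1.59 and 4.15). Receptors counted 5 higher and 6 lower of 22 tested against alpha, 8 and 10 of 22 against delta, and 7 and 12 of 28 against beta barcodes. Channels and glucose entry counted 2 and 12 of 33, 3 and 10 of 28, and 11 and 10 of 37, in the same order. Both lists stand beside 14.4% higher and 12.2% lower of all genes tested against alpha, 8.88% and 9.35% against delta, and 10.6% and 13.3% against beta barcodes. The neuropeptide Y receptor genes Npy1r, Npy2r, Npy4r and Npy5r had no UMI in the PP sums.

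Genes of the integrated stress response and the unfolded protein response had medians above alpha and below beta barcodes. Beside the counts below, 14.4% of all genes tested were higher and 12.2% lower against alpha, 8.88% and 9.35% against delta, and 10.6% and 13.3% against beta barcodes. Integrated stress response genes were higher for 22 and lower for 1 of 32 tested against alpha barcodes (median log2 fold change 0.49), higher for 10 and lower for 2 of 32 against delta barcodes (0.18), and higher for 1 and lower for 19 of 35 against beta barcodes (-0.73). Unfolded protein response genes were higher for 19 of 30 against alpha barcodes, lower for 11 of 29 against delta and lower for 21 of 30 against beta barcodes, with medians of 0.42, -0.19 and -0.69. Hspa5, the main chaperone of the endoplasmic reticulum, averaged 1176 ± 262 CPM in PP, 706 in alpha, 1464 in delta and 2122 in beta barcodes (0.77, -0.33 and -0.77, edgeR adjusted p = 2.2e-07, 0.0031 and 0.00098). Heat shock genes were higher for 0 and lower for 1 of 14 against alpha, 2 and 1 against delta, and 1 and 10 against beta barcodes, and metallothionein and zinc genes for 2 and 3 of 7, 3 and 0 of 7, and 1 and 5 of 8. Nuclear oxidative phosphorylation genes were higher for 9 and lower for 7 of 75 against alpha, 5 and 13 against delta, and 0 and 47 against beta barcodes, with medians of 0.04, -0.09 and -0.50. Antigen presentation and interferon genes were higher for 12 and lower for 0 of 21 against alpha, 3 and 3 against delta, and 5 and 2 against beta barcodes, with medians of 0.60, -0.19 and 0.24. H2-D1, a class I antigen gene, stood at 449 ± 26.1 CPM in PP and 293 CPM in alpha barcodes (0.66, edgeR adjusted p = 1.1e-05).

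Markers of other cells moved with the class comparisons. All 6 endothelial markers were higher in PP than in alpha and in beta barcodes, 2 of 6 than in delta barcodes, and 0 were lower. Of all genes tested, 14.4% were higher against alpha, 8.88% against delta and 10.6% against beta barcodes. The summed level of these markers was 59.3 and 127 CPM in the imeglimin and vehicle PP sums at 11.1 mM and 49.7 and 58.4 CPM in those at 3.9 mM. It was 8.00 to 30.1 CPM in alpha, 7.62 to 101 CPM in delta and 18.2 to 32.9 CPM in beta sums. At least 3 endothelial markers were seen in 8 of 714 PP barcodes. At least 3 duct markers were seen in 25 and at least 3 acinar markers in 10 of the 714. The 5 duct markers summed to 1007 to 1310 CPM in PP sums, against 717 to 2346 CPM in alpha, 309 to 503 CPM in delta and 312 to 544 CPM in beta sums. Most of this was Spp1, the osteopontin gene, with 1027 ± 197 CPM in PP, 1153 ± 764 in alpha, 166 ± 103 in delta and 223 ± 198 CPM in beta barcodes, while Krt19 and Cftr were at 0 in 1 and 2 of the 4 PP sums. Acinar markers summed to 10.5 to 156 CPM, macrophage markers to 27.9 to 99.6 CPM and stromal markers to 5.58 to 46.9 CPM. Of the 4 lymphoid markers, Cd3e, Nkg7 and Ms4a1 were at 0 in all 4 PP sums, and Cd79a had 0 and 1 UMIs with imeglimin and vehicle at 11.1 mM, and 4 and 19 with imeglimin and vehicle at 3.9 mM. Their part in the class results was not tested.

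Imeglimin was then set against vehicle within the PP barcodes of each glucose level. With 1 library per condition there is no test: values are CPM on a TMM scale over the 4 PP sums, log2 ratios carry exact Poisson 95% intervals that cover counting error only, and 1.5-fold is used as a size. In these sums fewer cells of a type and less RNA per cell cannot be told apart for any gene that only some barcodes express. At 11.1 mM glucose 219 of 2920 genes compared were at least 1.5-fold higher with imeglimin (7.5%) and 161 lower (5.51%). At 3.9 mM 253 of 2995 were higher (8.45%) and 180 lower (6.01%). These splits turned under other scalings: with the mean of per-barcode CPM, 181 were higher and 220 lower at 11.1 mM, and 207 higher and 274 lower at 3.9 mM, and with plain CPM 212 were higher and 224 lower at 3.9 mM.

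The 2 glucose levels share no library, so their ratios can be set side by side. Genes reaching 50 CPM in either library enter through the library where they are high, so genes with a mean of at least 20 CPM over the 4 PP sums are given first. Of these 5754 genes, 514 (8.93%) were at least 1.5-fold higher at 11.1 mM and 428 (7.44%) at 3.9 mM, and 177 were higher at both, which is 34.4% of the first list and 41.4% of the second. Lower at both were 157 genes, 44.0% of 357 at 11.1 mM and 41.5% of 378 at 3.9 mM, while 6.2% and 6.57% of all genes were lower. In opposite directions stood 17 genes. Pearson's r of the log2 ratios across the 5754 genes was 0.496, and genes are not independent replicates. Of the 2711 genes that reached 50 CPM at both glucose levels, 203 (7.49%) were higher at 11.1 mM, 200 (7.38%) at 3.9 mM and 106 at both, 74 were lower at both, and 3 stood in opposite directions.

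Sema6a, a transmembrane semaphorin, stood at 68.5 CPM with imeglimin and 8.32 CPM with vehicle at 11.1 mM glucose (log2 ratio 3.04, 95% interval 2.14 to 4.09), and at 52.5 CPM with imeglimin and 7.55 CPM with vehicle at 3.9 mM (2.80, 2.11 to 3.57). The vehicle sums rested on 11 and 19 UMIs. Rhou, an atypical small GTPase, had 183 CPM with imeglimin and 74.9 CPM with vehicle at 11.1 mM (1.29), and 186 CPM with imeglimin and 67.2 CPM with vehicle at 3.9 mM (1.47). The metal-binding metallothioneins were abundant: Mt1 had 4557 CPM with imeglimin and 911 CPM with vehicle at 11.1 mM (2.32, 2.23 to 2.41), and 6730 CPM with imeglimin and 2853 CPM with vehicle at 3.9 mM (1.24, 1.20 to 1.28). Mt2 had log2 ratios of 2.39 and 1.00 at 11.1 and 3.9 mM. The glycoprotein gene Angptl6 had 1.58 and 1.15, the cytokine receptor subunit gene Il6st 1.10 and 1.28, the lysosomal sialidase gene Neu1 1.04 and 1.15, and the O-GlcNAc hydrolase gene Oga 1.01 and 1.01.

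Genes of the integrated stress response, the programme in which ATF4 and CHOP (encoded by Ddit3) raise amino acid supply when translation initiation is inhibited, stood higher with imeglimin almost throughout. Members were compared where the mean of the 4 PP sums was at least 20 CPM, which 28 of the 35 listed genes reached. At 11.1 mM glucose 27 of the 28 were higher by 1.5-fold or more and 0 lower, giving a median log2 ratio of 0.93, beside 8.93% higher and 6.2% lower of 5754 genes and a median of 0.06. At 3.9 mM 23 of the 28 were higher and 0 lower, with a median of 1.03, beside 7.44% higher and 6.57% lower of all genes. The member outside at 11.1 mM was Slc7a5, an amino acid transporter gene (0.27). At 3.9 mM Slc7a5 (0.43), Gars (0.43), Vldlr (0.47), Pck2 (0.12) and Nupr1 (-0.04) were outside.

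Ddit3 had 458 CPM with imeglimin and 68.0 CPM with vehicle at 11.1 mM (log2 ratio 2.75, 2.43 to 3.09), and 916 CPM with imeglimin and 300.2 CPM with vehicle at 3.9 mM (1.61, 1.49 to 1.73). Atf4 had 206 CPM with imeglimin and 124 CPM with vehicle at 11.1 mM (0.73, 0.45 to 1.02), and 277 CPM with imeglimin and 151 CPM with vehicle at 3.9 mM (0.87, 0.70 to 1.05). Trib3, a pseudokinase induced by CHOP, had 50.7 CPM with imeglimin and 8.32 CPM with vehicle at 11.1 mM (2.61, 1.68 to 3.67), and 106 CPM with imeglimin and 36.2 CPM with vehicle at 3.9 mM (1.55, 1.21 to 1.90). At both glucose levels the imeglimin library was the higher for each of the 3 genes. Among effectors, the serine synthesis genes Phgdh, Psat1 and Psph had log2 ratios of 1.95, 1.56 and 1.34 at 11.1 mM and 1.88, 2.82 and 1.63 at 3.9 mM. The mitochondrial folate enzyme gene Mthfd2 had 1.11 and 1.18, the asparagine synthetase gene Asns 0.76 and 1.03, the transporter subunit gene Slc3a2 1.12 and 1.30, and Ppp1r15a, which encodes the eIF2alpha phosphatase subunit GADD34, 1.10 and 1.11. Gdf15, a stress hormone, had 94.9 CPM with imeglimin and 48.4 CPM with vehicle at 11.1 mM (0.97), and 196 CPM with imeglimin and 50.5 CPM with vehicle at 3.9 mM (1.95, 1.68 to 2.24).

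**Figure D4:**
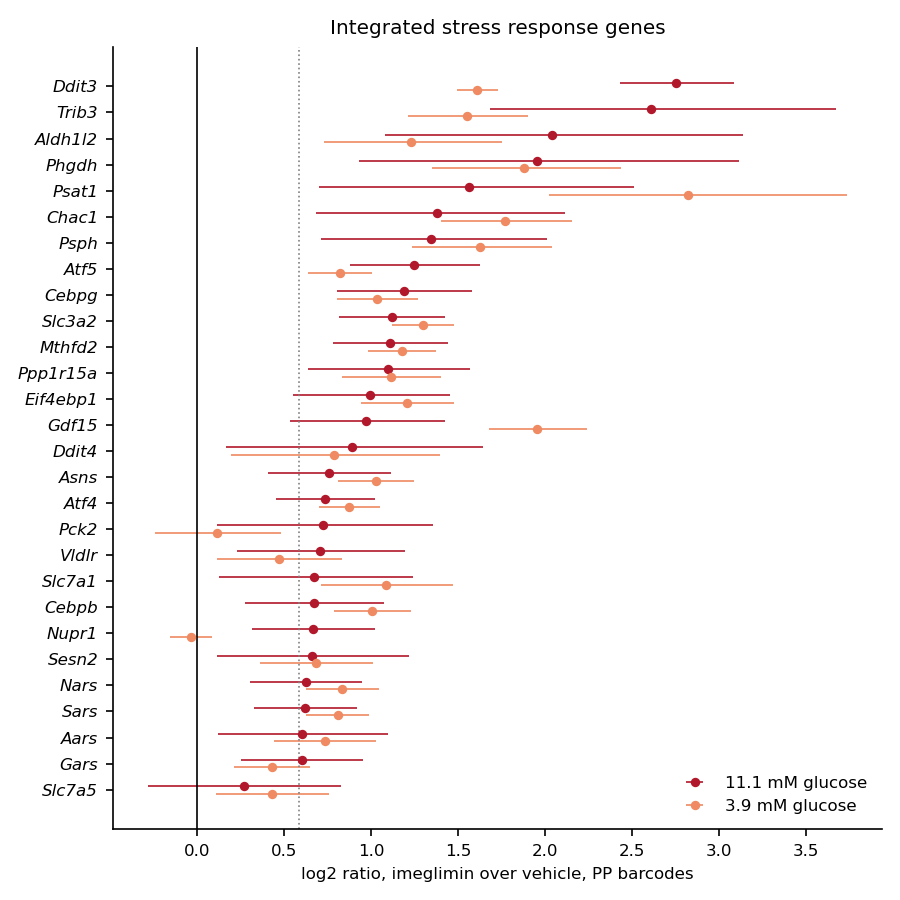
Log2 ratio of imeglimin over vehicle in PP barcodes for 28 integrated stress response genes, with exact Poisson 95% intervals covering counting error only, at 11.1 mM glucose (dark) and 3.9 mM glucose (light); the dotted line marks 1.5-fold. All points but Slc7a5 lie past it at 11.1 mM.

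The same list in the other classes, filtered in the same way, gave 20 of 26 members higher at 11.1 mM and 23 of 26 at 3.9 mM in alpha barcodes, with medians of 0.94 and 1.42, beside 5.61% and 8.63% higher, and 4.52% and 6.41% lower, of all genes compared in alpha barcodes. In delta barcodes 8 of 27 and 18 of 27 were higher, with medians of 0.29 and 0.78, beside 5.46% and 8.79% higher, and 4.75% and 7.15% lower, of all genes. In beta barcodes 10 of 28 were higher and 0 lower at 11.1 mM, and 8 higher and 5 lower at 3.9 mM, with medians of 0.44 and 0.17, beside 4.34% and 11.1% higher, and 3.94% and 11.1% lower, of all genes. The classes come from the same libraries, and the difference between them was not tested.

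ATF4 and CEBP-family factors bind composite elements of the form TGATGNAA, so the promoter windows of the list were searched for these letters on both strands. Of 29 list genes with an entry in the RefSeq table, 10 held a match within the 250 bases before the start (34.5%), and 1056 of 27025 genes of the table did (3.91%). Those of members compared above are shown 5′ to 3′ in the direction of transcription with the 8 matching letters in capitals, on GRCm38.p6.
Chac1, chr2:119351029-119351076, plus strand: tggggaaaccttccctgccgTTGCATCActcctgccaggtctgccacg
Asns, chr6:7693210-7693252, minus strand: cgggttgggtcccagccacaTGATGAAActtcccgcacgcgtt
Nupr1, chr7:126625553-126625600, minus strand: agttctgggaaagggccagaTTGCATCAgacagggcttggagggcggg
Vldlr, chr19:27216800-27216847, plus strand: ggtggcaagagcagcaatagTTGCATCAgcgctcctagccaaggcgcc
Pck2, chr14:55540143-55540190, plus strand: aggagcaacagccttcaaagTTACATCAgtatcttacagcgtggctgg
Aars, chr8:111033710-111033757, plus strand: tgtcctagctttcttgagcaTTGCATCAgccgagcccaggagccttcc
Gars, chr6:55037951-55037998, plus strand: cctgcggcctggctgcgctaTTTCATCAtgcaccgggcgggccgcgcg
A match is a description and not a bound site. The list was written by hand as genes of the ATF4 and CHOP programme, so its larger share of matches is a description too. Of these 7 genes, Chac1, Asns and Aars were past 1.5-fold at both glucose levels, and Nupr1, Vldlr, Pck2 and Gars at 11.1 mM only.

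Genes outside the stress list are given next. Vgf, a granin-like precursor, had 36.4 CPM with imeglimin and 11.3 CPM with vehicle at 11.1 mM (1.68, 0.83 to 2.62), and 41.0 CPM with imeglimin and 13.5 CPM with vehicle at 3.9 mM (1.60, 1.04 to 2.19). Pyy was lower with imeglimin, by log2 ratios of -0.45 and -0.54 at 11.1 and 3.9 mM glucose, under 1.5-fold. Among transcription factors Nkx6-1 had 304 CPM with imeglimin and 158 CPM with vehicle at 11.1 mM (0.94, 0.70 to 1.19), and 288 CPM with imeglimin and 117 CPM with vehicle at 3.9 mM (1.30, 1.10 to 1.49). The BMP-responsive inhibitors Id1, Id2 and Id3 had ratios of 1.39, 0.98 and 0.86 at 11.1 mM and 1.21, 1.10 and 0.88 at 3.9 mM. Vgf and Id1 were over 10 times higher in another class, so their part from free RNA was not tested. St18, a zinc finger repressor, had -1.07 and -1.02. Malat1, a nuclear long RNA, had 55982 CPM with imeglimin and 32321 CPM with vehicle at 11.1 mM and 46889 CPM with imeglimin and 26276 CPM with vehicle at 3.9 mM, and the part of this difference in the ratios of other genes was not tested.

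Lower with imeglimin by at least 2-fold at both glucose levels were, among others, Tmsb15b2, a thymosin beta gene with near copies (99.9 CPM with imeglimin and 266 CPM with vehicle at 11.1 mM, log2 ratio -1.41; 82.6 CPM with imeglimin and 313 CPM with vehicle at 3.9 mM, -1.92), and the chromatin remodeller gene Chd3 (19.3 CPM with imeglimin and 86.2 CPM with vehicle at 11.1 mM, -2.16; 24.99 CPM with imeglimin and 62.8 CPM with vehicle at 3.9 mM, -1.33). Reads of Tmsb15b2 and its neighbour Tmsb15b1 may be split between them, so both are uncertain. Dbpht2 had -1.60 and -1.75, the sulphotransferase gene Sult1d1 -1.34 and -1.62, the G protein regulator gene Rgs4 -1.27 and -1.35, the cold-inducible RNA-binding protein gene Rbm3 -1.15 and -1.21, and Ucp2, a mitochondrial carrier gene, -1.27 and -1.10. At 3.9 mM alone, Ddc, the aromatic amino acid decarboxylase gene, had 7.69 CPM with imeglimin and 50.5 CPM with vehicle (-2.72, -3.41 to -2.08), beside 27.1 CPM with imeglimin and 46.1 CPM with vehicle at 11.1 mM (-0.77). Glp1r, the GLP-1 receptor gene, had -1.86 and -2.36, with over 10 times more in another class, and its level in the vehicle libraries lay mostly in Iapp-rich barcodes, with 108 CPM against 8.63 CPM in the rest at 11.1 mM and 169 CPM against 19.7 CPM at 3.9 mM. Fgb had 87.8 CPM with imeglimin and 319 CPM with vehicle at 3.9 mM (-1.86), where 1 vehicle barcode held 33.0% of its UMIs.

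**Figure D5:**
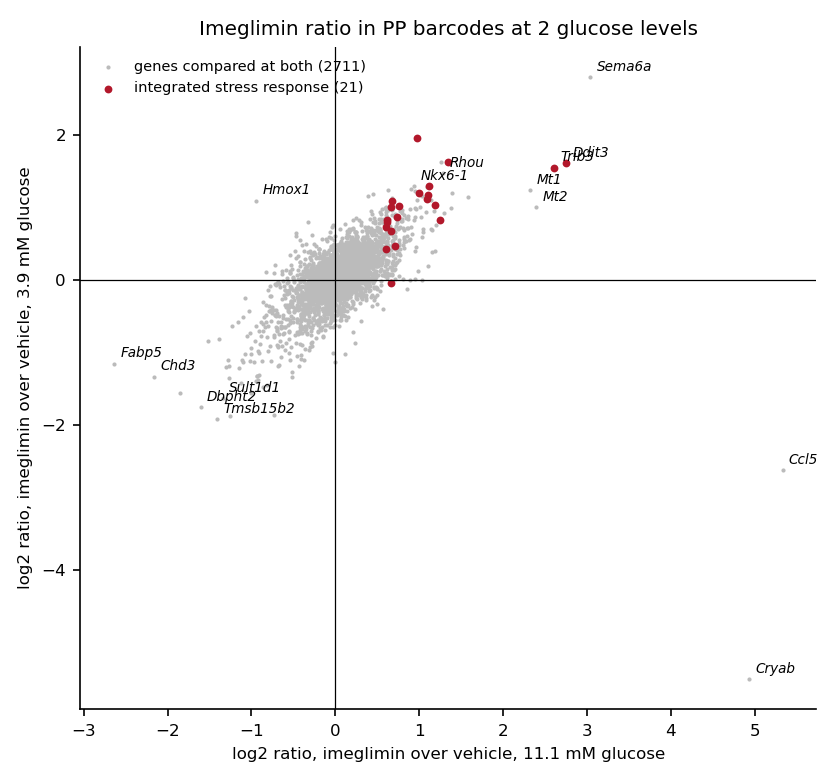
Log2 ratio of imeglimin over vehicle in PP barcodes at 11.1 mM glucose (x axis) and 3.9 mM glucose (y axis) for the 2711 genes compared at both, with integrated stress response genes in red. Most genes far from 0 lie in the upper right or lower left, and Ccl5, Cryab and Hmox1 lie off this diagonal.

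Glucose was compared last, under imeglimin and under vehicle. Under imeglimin 93 of 2963 genes were at least 1.5-fold higher at 11.1 mM than at 3.9 mM (3.14%) and 120 lower (4.05%). Under vehicle 68 of 2848 were higher (2.39%) and 108 lower (3.79%). With the mean of per-barcode CPM the counts were 126 higher and 77 lower under imeglimin and 88 higher and 78 lower under vehicle, and with plain CPM 75 and 161 under imeglimin.

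Glycolysis genes stood higher at 11.1 mM glucose. Of the 12 of 19 listed genes with a mean of at least 20 CPM, 11 were at least 1.5-fold higher under imeglimin and 10 under vehicle, 0 lower, with median log2 ratios of 1.27 and 0.85, beside 4.0% and 2.85% higher of 5754 genes. Ldha, the lactate dehydrogenase gene that beta cells keep low, had 82.1 CPM at 11.1 mM and 4.80 CPM at 3.9 mM under imeglimin (4.09, 3.31 to 4.98), and 94.5 CPM at 11.1 mM and 23.1 CPM at 3.9 mM under vehicle (2.04, 1.57 to 2.51). Pgk1, phosphoglycerate kinase, had 210 CPM at 11.1 mM and 51.9 CPM at 3.9 mM under imeglimin (2.02, 1.73 to 2.30), and 194 CPM at 11.1 mM and 105 CPM at 3.9 mM under vehicle (0.89, 0.63 to 1.14). Both genes were lower in the imeglimin than in the vehicle library at 3.9 mM. Ldha was singled out after its values were seen, and another class held over 10 times more of it. Ankrd37, a hypoxia-responsive gene outside the list, had 72.1 CPM at 11.1 mM and 9.61 CPM at 3.9 mM under imeglimin (2.91), and 96.8 CPM at 11.1 mM and 23.5 CPM at 3.9 mM under vehicle (2.04). The collagen hydroxylase gene P4ha1 had 1.54 under imeglimin and 1.47 under vehicle, and the mitophagy receptor gene Bnip3 1.41 and 1.36. Txnip, a glucose-induced inhibitor of thioredoxin, had 1.10 under imeglimin and 0.86 under vehicle.

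Immediate early genes, transcribed within minutes of stimulation or handling, were at least 1.5-fold higher at 11.1 mM for 7 of 12 members under imeglimin, and for 8 under vehicle with 1 lower, beside 4.0% of all genes higher and 4.94% lower under imeglimin and 2.85% higher and 5.04% lower under vehicle. Fos had 98.5 CPM at 11.1 mM and 25.6 CPM at 3.9 mM under imeglimin (1.94, 1.53 to 2.36), and 140 CPM at 11.1 mM and 11.5 CPM at 3.9 mM under vehicle (3.60, 3.03 to 4.22). Egr1 had ratios of 1.11 and 1.88, and Btg2 1.17 and 1.44, under imeglimin and vehicle.

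Several stress genes stood lower at 11.1 mM than at 3.9 mM. Nupr1, a stress-induced chromatin protein, had 131 CPM at 11.1 mM and 401 CPM at 3.9 mM under imeglimin (-1.62, -1.85 to -1.40), and 82.4 CPM at 11.1 mM and 412 CPM at 3.9 mM under vehicle (-2.32, -2.62 to -2.04). Ddit3 had -0.999 under imeglimin and -2.14 under vehicle, Mt1 -0.56 and -1.65, and the ribonuclease genes Rnase4 and Ang, which share a locus and may share reads, -1.49 and -1.03 under imeglimin and -1.88 and -1.32 under vehicle. Of the 28 integrated stress response genes, 10 were lower and 0 higher under imeglimin, and 8 lower and 1, Psat1, higher under vehicle, with medians of -0.52 and -0.41, beside 4.94% and 5.04% lower of all genes. Pyy was higher at 11.1 mM by 0.53 under imeglimin and 0.43 under vehicle, and Etv1 by 0.48 and 0.42, all under 1.5-fold.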

How the data were processed

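Droplet libraries (10x 3' v3.1 chemistry, per the labels) of 4 islet cultures were used, 1 per condition. The deposited values are UMI counts per gene and barcode. Per the submitters' processing notes, Cell Ranger 6.0.2 and the mm10 build were used; other settings are not given in the sources used here. The matrices held 32285 genes, and a repeated symbol was given to the identifier with nearly all of its UMIs.

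UMI counts were summed per library and class with Python 3.11.15 and pandas 2.3.3. Classes were compared in R 4.3.3 with the quasi-likelihood test of edgeR 4.0.16 (TMM, filterByExpr, library as a block because both classes came from the same suspension, 3 residual degrees of freedom, adjusted p under 0.05). DESeq2 1.42.0 was an alternative. The fit was also run on simulated data, with the same dispersion for all genes and no class difference that varied with culture. That run does not measure the error of the calls in these data. Conditions were compared as ratios of TMM-scaled CPM with exact Poisson 95% intervals, for genes reaching 50 CPM in 1 of the 2 libraries, and with 1.5-fold as a measure of size. Lists of 18 gene groups were counted at a mean of at least 20 CPM over the 4 PP sums, a filter chosen after seeing the data. Doublets were scored with scanpy 1.11.5 (scrublet), whose threshold marked 0 of 31792 barcodes and so did not work; the highest scores served as an alternative. A count of 0 allows up to 3 UMIs.

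Named genes were those with the highest and lowest fold changes shared by the 3 class comparisons or past the size in a condition comparison, members of the lists with the largest ratios, and a short set of islet and stress genes. Genes over 10 times higher in another class were left out of the first 2 kinds. Genes with the highest and lowest ratios of a condition comparison also needed a UMI in at least 20% of PP barcodes of the higher library. They also had to keep their direction under plain CPM and the mean of per-barcode CPM. Ppy, Ins1, Ins2, Gcg and Sst chose the barcodes and were left out of the tests. The members, lists and tests were chosen with earlier results of these data known. Promoter sequences came from RefSeq on GRCm38.p6. Some genes of these lists are not reported here.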

Additional observations from a re-analysis of the deposited data

Results flagged for a closer look

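For 3 of the 2711 genes reaching 50 CPM at both glucose levels the imeglimin over vehicle ratio in PP barcodes ran in opposite directions at the 2 glucose levels; the difference was not tested. Ccl5, a chemokine gene of immune cells, had a log2 ratio of 5.33 at 11.1 mM and -2.62 at 3.9 mM, and 1 barcode held 169 of 171 UMIs in the imeglimin library at 11.1 mM and 1 held 115 of 129 in the vehicle library at 3.9 mM. Cryab, a small heat shock protein gene, had 4.94 at 11.1 mM and -5.5 at 3.9 mM, from 3 barcodes with a UMI in the imeglimin library at 11.1 mM and 3 in the vehicle library at 3.9 mM. Hmox1, the heme oxygenase gene, had -0.946 at 11.1 mM and 1.1 at 3.9 mM, with 31.4 CPM with imeglimin and 60.5 CPM with vehicle at 11.1 mM, and 71.4 CPM with imeglimin and 33.4 CPM with vehicle at 3.9 mM. All 3 genes were over 10 times higher in another class, and the part of free RNA and doublets was not tested.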

How the results depend on the processing

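With 1 library per condition, no condition difference could be tested, and intervals cover counting error only. Free RNA and doublets were not removed. The limits of the rule moved the PP share. Without Iapp-rich barcodes it was 1.46% with imeglimin at 11.1 mM, and 2.35% with imeglimin and 1.53% with vehicle at 3.9 mM glucose. With at least 3000 UMIs it was 3.44% with imeglimin at 3.9 mM. With vehicle at 3.9 mM it was 2.90% at Ppy of at least 1%, 1.83% at Ppy of at least 5%, 1.97% at insulin under 2% and 2.99% at insulin under 8%.

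Genes called higher and lower numbered 949 and 693 against alpha and 448 and 486 against delta with DESeq2, and 808 and 758 against alpha and 531 and 605 against delta in 1 fit on all classes. Without the replicate block they were 389 and 320 against alpha, 288 and 387 against delta, and 1049 and 901 against beta. Leaving out 1 library gave 1130 to 1338 and 985 to 1163 against alpha, 688 to 815 and 726 to 936 against delta, and 1055 to 1546 and 1285 to 1985 against beta. Without the vehicle library at 3.9 mM, 1130 were higher than in alpha, and 1055 higher and 1343 lower than in beta; without the imeglimin library at 11.1 mM, 1285 were lower than in beta. Of 2137 values for 119 genes between classes, 111 lost their call and 1 reversed: Iapp against alpha was -0.55 without Iapp-rich barcodes, by construction.

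Counts at 1.5-fold followed the CPM minimum. For imeglimin against vehicle at 11.1 mM they were 615 higher and 491 lower at 20 CPM, 102 and 55 at 100 CPM, and 514 and 357 at a mean of 20 CPM. At 3.9 mM they were 524 and 489, 121 and 69, and 428 and 378. For 11.1 against 3.9 mM glucose under imeglimin they were 305 and 360, 45 and 47, and 230 and 284, and under vehicle 253 and 366, 27 and 38, and 164 and 290. With the mean of per-barcode CPM, 274 were lower with imeglimin at 3.9 mM and 77 lower at 11.1 mM glucose under imeglimin. Under vehicle 70 were lower at 11.1 mM at Ppy of at least 5%, 217 at insulin under 8%, 62 at insulin under 2% and 67 without Iapp-rich barcodes. Of 2767 values for 191 genes between conditions, 152 moved beyond their counting interval and 0 reversed. The cause of these moves was not tested. Settings that changed only the CPM filter, or left out genes much higher in another class, kept each gene's ratio as it was. Their values count among the 2767 but could neither move nor reverse, so they say nothing of robustness. Only genes at least 1.5-fold apart in the main setting entered. Those named for the highest and lowest ratios had to keep their direction under plain CPM and the mean of per-barcode CPM. For them the lack of a reversal under those scalings was fixed in advance. The limits on Iapp, on insulin under 2%, on shared barcodes and on the mean CPM were chosen after seeing the data.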
